A study of Rattus norvegicus with 81 samples.

Results

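The cytochrome P450 genes of families 1 to 4 were examined in the 5th caudal mammary glands of Sprague-Dawley rats, all females. A gene counted as a member where its transcript cluster, the set of array probes that stands for a transcript, carried a single symbol of the form Cyp, a family number from 1 to 4, a subfamily letter and a number. This gave 52 members of 18166 genes with a single symbol, in 21 subfamilies, and each member was measured by 1 cluster. Another 3 clusters carried several P450 symbols (Cyp2s1 with a pseudogene, Cyp4a3 with Cyp4a2, and Cyp2d1 with Cyp2d5) and were left out, and Cyp1a2 was not among the members.

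Total RNA of 81 animals in 18 groups was hybridised to Affymetrix arrays. The animals had received low oral doses of 1 of 3 chemicals used in personal care products, or the olive oil vehicle alone (OIL), in which the chemicals were given. DEP is diethyl phthalate, MPB is methyl paraben and TCS is triclosan. The doses had been set to yield urine levels like those found in people in the United States, per the design text. Exposure on gestation days (GD) 1-20 reached the pups through their gavaged mothers, and exposure on postnatal days (PND) 1-20 through the milk of gavaged mothers. Both of these groups were killed at PND 21, with 1 female pup taken per litter. Animals exposed on PND 21-41 were dosed through milk and, from PND 28, by their own gavage, and were killed at PND 42. Animals exposed on PND 42-62 were gavaged and killed at PND 63. A chronic experiment with TCS and OIL ran from PND 1 through milk and later gavage, mating at PND 97, pregnancy and lactation, to PND 146. Groups held 5 arrays, except that TCS had 4 after exposure on PND 1-20 and 3 in each of its later windows, and the chronic groups had 3 each. Age at kill went together with the dosing route, so age and route cannot be told apart in the age comparisons below.

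P450 enzymes are heme proteins of the endoplasmic reticulum that insert oxygen into their substrates with electrons from P450 oxidoreductase. Families 1 to 3 hold the enzymes best known for oxidising drugs, pollutants and steroids, many of them induced in liver through the aryl hydrocarbon receptor (family 1), the constitutive androstane receptor (2B) or the pregnane X receptor (3A). Family 4 enzymes hydroxylate fatty acids and eicosanoids, and 4A genes are targets of the receptor PPAR alpha. The mammary gland is an extrahepatic site where local P450s can act on estrogens and lipid-soluble chemicals.

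The values were log2 expression values as deposited. DEP and its OIL arrays were compared within their own deposited table of 6762 named genes. The lowest cluster mean in that table was 4.88 and the lowest SD 0.15, so its 15 P450 genes were kept partly because they vary. The chronic arrays had been normalised separately. Correlations between arrays of a group spanned 0.921 to 0.994 in the table of MPB, TCS and OIL, 0.748 to 0.988 in the table of DEP and OIL and 0.974 to 0.985 in the chronic table. Glands differed in the levels of cell type markers. A score for each cell type, the mean over its markers of the log2 value minus that marker's mean over arrays, spanned -0.86 to 5.40 for skeletal muscle and -1.80 to 1.44 for B cells over the MPB, TCS and OIL arrays. In bulk tissue, fewer cells of a type and less RNA per cell cannot be told apart. Nothing in the labels shows more than 1 array per animal, and the p-values below measure the spread between these arrays.

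Most P450s of classical liver induction gave low signals. Of the 52 members, 23 had a mean log2 value of 6 or more over the MPB, TCS and OIL arrays of the short windows, and 29 lay under 6. A low array value is close to probe background and differs between probe sets, so the values of different genes are not ranked here as amounts of transcript. None of the 7 members of subfamily 2C, the 5 of 3A, the 2 of 4A or the single members 1A, 2F and 2G reached 6. In 4F, the leukotriene and fatty acid hydroxylases, 5 of 7 did, and in 2J, the arachidonic acid epoxygenases, 3 of 4 did. Subfamily 2B had 2 of 7 there and 2D had 2 of 4. The 12 members with the highest mean array values were Cyp4f6 (8.87), Cyp4v3 (8.85), Cyp4b1 (8.67), Cyp2u1 (8.58), Cyp2t1 (8.57), Cyp2d4 (8.52), Cyp2j4 (8.33), Cyp4f5 (8.12), Cyp4f17 (8.00), Cyp2s1 (7.91), Cyp2b2 (7.68) and Cyp2e1 (7.55). Among them Cyp2u1 and Cyp4v3 encode fatty acid hydroxylases, and Cyp2b2 is the phenobarbital-inducible P450 of rat liver.

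The members differed in how far they varied over the arrays. Cyp2e1, the ethanol-inducible P450 that oxidises small solvents and acetone, had an SD of 1.32 and values of 5.52 to 10.88. The next widest SDs were 0.62 for Cyp4f17 and 0.59 for Cyp2t1. Cyp1a1, the standard reporter of aryl hydrocarbon receptor activation, had an SD of 0.15 and stayed between 5.29 and 6.13 on all these arrays. RNA of liver cells was looked for through 11 hepatocyte markers. Albumin transcript (Alb) averaged 11.20 with a range of 10.25 to 12.08, while Ttr, the gene of transthyretin, reached at most 10.50 and Fgg, a fibrinogen chain, at most 10.01. Ttr averaged 6.79 and Fgg 6.68, and the highest values of the other 8 markers lay between 6.11 and 7.86.

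The first question was whether a low-dose exposure changed P450 expression at the end of its window. No P450 gene passed an adjusted p of 0.05 against OIL in any of the 12 short-window comparisons or in the chronic one (limma, Benjamini-Hochberg adjustment over all genes tested). The share of all genes that passed was 0% after DEP on GD 1-20, PND 1-20 and PND 42-62 and 0.0148% on PND 21-41. It was 0.0055% after MPB on GD 1-20 and PND 42-62 and 0% on PND 1-20 and PND 21-41. After TCS it was 0.0055% on GD 1-20 and 0% in the 3 later windows and in the chronic experiment. At an unadjusted p under 0.05, DEP gave 1 of 15 members on GD 1-20 (6.97% of all genes), 0 on PND 1-20 (2.72%), 0 on PND 21-41 (2.26%) and 2 on PND 42-62 (14.7%). MPB gave 2 of 52 (4.02%), 1 (1.67%), 6 (9.84%) and 10 (17.8%) in the same order of windows. TCS gave 8 (6.8%), 3 (6.25%), 3 (2%) and 1 (3.01%). These member counts lay near the share of all genes in most comparisons, so they are no result about P450 genes. Members whose groups did not overlap numbered 0 (0.887% of all genes), 0 (0.651%), 0 (0.577%) and 1 (3.58%) for DEP over the 4 windows, 1 (0.226%), 0 (0.204%), 0 (0.87%) and 1 (1.75%) for MPB, and 0 (0.49%), 0 (1.71%), 3 (2.37%) and 1 (2.9%) for TCS. All comparisons of 1 window share its OIL arrays.

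No liver induction marker passed the test against OIL. Group means of Cyp1a1 lay between 5.57 and 5.81 in the short windows, and its differences from OIL spanned -0.11 to 0.19 on the log2 scale over the 9 comparisons of MPB and TCS that measured it. Over the comparisons that measured each of them, the differences spanned -0.32 to 0.09 for Cyp1b1, which hydroxylates estradiol, and -0.25 to 0.40 for Cyp2b1. They spanned -0.14 to 0.18 for Cyp2b2, -0.19 to 0.04 for Cyp3a2, a male-predominant steroid hydroxylase of rat liver, and -0.23 to 0.36 for Cyp4a1, the PPAR alpha target that hydroxylates lauric acid. Cyp4a1 was nearest to a change after TCS on GD 1-20, at 5.93 ± 0.40 in TCS glands and 5.57 ± 0.21 in OIL glands (SD, n = 5 each), a difference of 0.36 ± 0.14 (SE) with an adjusted p of 0.725. The 3A marker Cyp3a23-3a1 averaged 4.82 ± 0.09 in TCS glands (SD, n = 3) and 5.18 ± 0.23 in OIL glands (SD, n = 5) on PND 21-41. Its groups did not overlap, which 2.37% of all genes shared, but the difference of -0.38 ± 0.15 (SE) did not pass the test. None of the measured genes of the lists of electron and heme supply, sensing receptors, aryl hydrocarbon receptor targets, PPAR alpha targets, epoxide hydrolases or other P450 families passed the test against OIL in any window.

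**Figure D1:**
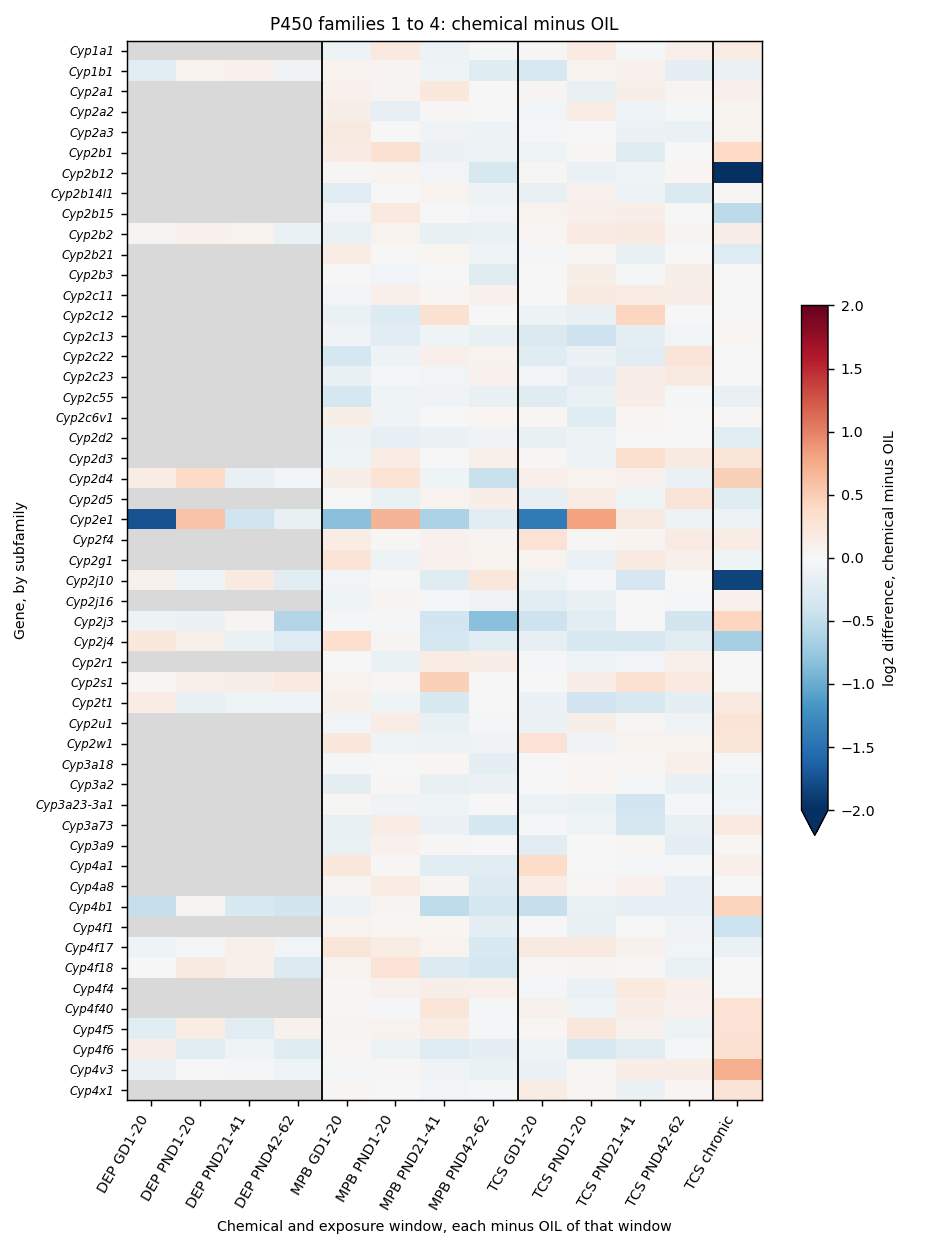
Log2 difference from OIL of the same window (colour, chemical minus OIL) for each P450 gene (rows, by subfamily) in each comparison (columns). Grey cells are genes that the DEP and OIL table does not hold, no cell passed the adjusted threshold of 0.05, and the colour scale ends at -2, below which lay chronic Cyp2b12 (-2.15).

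Cyp2e1 gave the widest differences after gestational exposure. In the DEP and OIL table it read 7.63, 7.78, 7.15, 9.01 and 6.20 in DEP glands, against 9.30, 9.28, 9.28, 9.89 and 8.71 in OIL glands. All but 1 of the DEP arrays lay below every OIL array, and the groups overlapped through the DEP array at 9.01. The difference was -1.74 ± 0.48 (SE) with an adjusted p of 0.572, and leaving out single arrays moved that p between 0.268 and 0.997. In the other table, MPB glands read 8.00, 9.91, 10.88, 7.17 and 7.71 and TCS glands 7.73, 8.59, 9.16, 6.73 and 8.63, against 9.55, 9.48, 9.42, 10.36 and 9.03 in OIL glands. Values in MPB glands lay on both sides of OIL, and TCS reached above only the lowest OIL array. The differences were -0.83 ± 0.63 (adjusted p = 0.984) and -1.40 ± 0.63 (adjusted p = 0.725).

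The same OIL arrays all read above the other OIL group killed at PND 21. Cyp2e1 averaged 9.57 ± 0.49 in OIL glands of the GD 1-20 window and 7.92, 7.26, 6.54, 6.85 and 8.29, a mean of 7.37 ± 0.73, in OIL glands of the PND 1-20 window (SD, n = 5 each). These vehicle groups did not overlap, which 0.633% of all genes shared. The difference was 2.20 ± 0.45 with an adjusted p of 0.237. In that comparison 0% of all genes passed the adjusted test and 8.54% an unadjusted one. Of the members, 6 of 52 had an unadjusted p under 0.05. Between these vehicle groups 11 of 11 hepatocyte markers were positive (median 0.21), 0 of 19 luminal markers (median -0.58), 0 of 11 muscle markers (median -0.71) and 7 of 17 adipocyte markers (median -0.01), none past the test, and their part in the Cyp2e1 values was not tested. In the PND 1-20 window the differences from OIL had the other sign, at 0.58 ± 0.48 for DEP, 0.68 ± 0.63 for MPB and 0.80 ± 0.67 for TCS. A test of whether the DEP difference varied over the 4 windows gave an adjusted p of 0.877 for Cyp2e1. In the comparison of DEP with OIL on GD 1-20, all 11 measured muscle markers were higher (median 1.76) and all 12 B cell markers lower (median -0.87), none past the test. The muscle score spanned -1.02 to 5.64 in DEP glands and -1.08 to -0.50 in OIL glands, and the B cell score -1.59 to 1.26 in DEP glands and 0.00 to 1.48 in OIL glands. The adipocyte score spanned -0.41 to 0.90 in DEP glands and -0.07 to 0.59 in OIL glands. Mean hepatocyte scores were -0.21 in DEP and 0.03 in OIL glands, and mean endothelial scores 0.07 and 0.39. Mean luminal, basal and fibroblast scores were higher in DEP than in OIL glands, the luminal ones at -0.56 and -1.01. In the other table, mean hepatocyte scores on GD 1-20 were -0.14 in MPB, -0.17 in TCS and 0.13 in OIL glands. The ranges of chemical and OIL glands overlapped in each of these scores. The part of these cells in the Cyp2e1 values was not tested.

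Cyp2j3, a rat epoxygenase of arachidonic acid known from heart, was the member nearest to a change after exposure on PND 42-62. It read 6.90, 7.87, 6.94, 6.86 and 7.69 in MPB glands, against 8.05, 8.06, 8.06, 8.08 and 8.20 in OIL glands. The OIL arrays lay within a narrow band, and every MPB array was below it. The difference was -0.84 ± 0.19 with an adjusted p of 0.145. Of single arrays left out, it passed the test only without MPB PND 42-62 replicate 2, the array at 7.87, and the p spanned 0.0222 to 0.4. TCS glands read 7.58, 7.57 and 7.94, below the same OIL arrays, with a difference of -0.37 ± 0.23 and an adjusted p of 1. DEP glands read 7.54, 6.96, 7.57, 7.45 and 7.50, against 8.00, 7.97, 8.03, 7.94 and 8.05 in OIL glands in the DEP and OIL table. These groups did not overlap either (-0.59 ± 0.13, adjusted p = 0.195). The 3 chemicals were set against the same 5 OIL animals, so the 3 differences share them.

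The OIL arrays of Cyp2j3 at that age also read above the younger OIL arrays. OIL glands averaged 8.09 ± 0.06 at PND 63 and 7.44 ± 0.33 at PND 42 (SD, n = 5 each), with PND 42 arrays at 7.85, 7.05, 7.32, 7.72 and 7.27. The ages did not overlap, which 1.75% of all genes shared. The difference of 0.65 ± 0.16 had an adjusted p of 0.0637. It passed without OIL PND 21-41 replicate 1 or with muscle and B cell scores in the fit. At PND 42-62 the adipocyte score spanned -0.88 to -0.33 in MPB glands, -1.02 to -0.19 in TCS glands and -0.54 to -0.26 in OIL glands. In the DEP and OIL table it spanned -1.04 to -0.58 in DEP glands and -0.57 to -0.28 in OIL glands, without overlap, and 0 of 16 adipocyte markers were positive (median -0.32). There 11 of 11 muscle markers (median 1.39) and 11 of 12 B cell markers (median 0.86) were positive in DEP against OIL, and none of the 3 lists had a member past the test. The muscle score spanned -0.87 to 3.13 in DEP glands and -1.17 to -0.64 in OIL glands, and the B cell score -1.30 to 1.39 in DEP glands and -1.29 to 0.44 in OIL glands. With muscle and B cell scores in the fit, Cyp2j3 differed by -1.21 in DEP against OIL and passed (adjusted p = 0.0402), and with the adipocyte score it differed by -0.53 (adjusted p = 0.681).

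**Figure D2:**
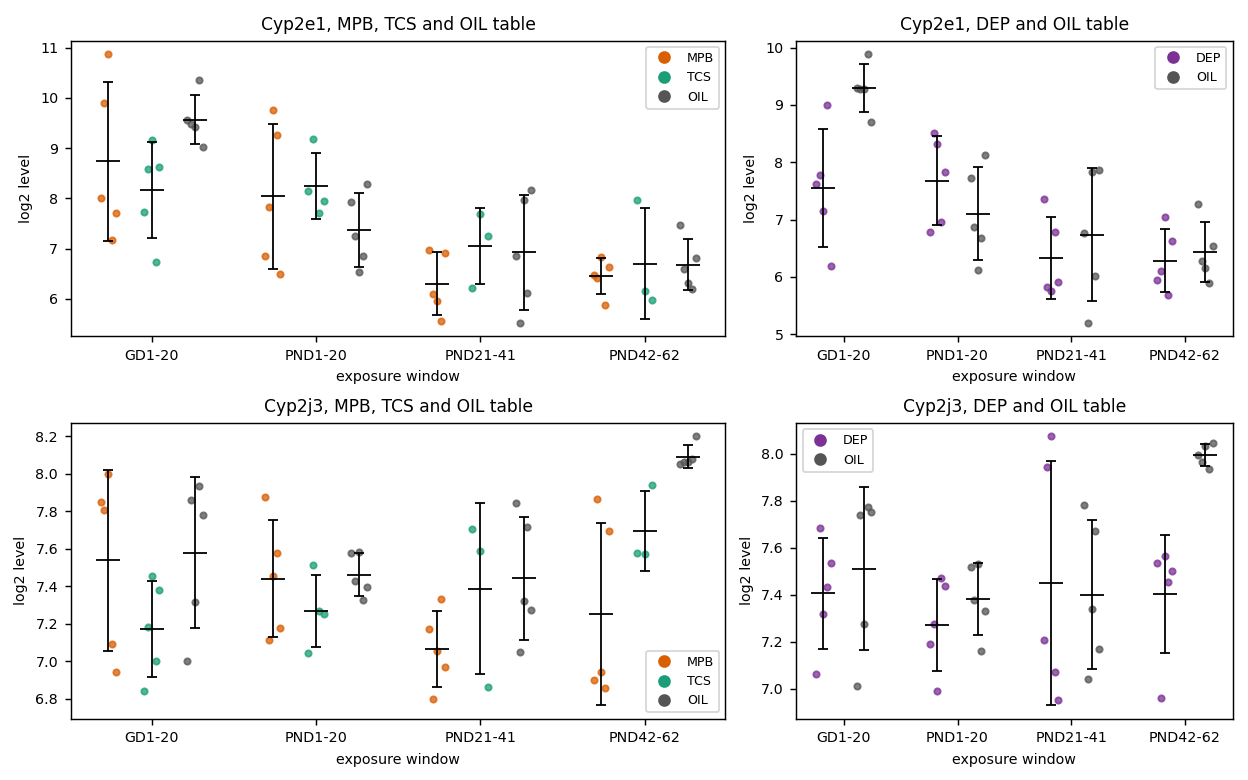
Log2 expression values (y axis) of Cyp2e1 and Cyp2j3 on each array (points), by exposure window (x axis) and treatment (colours), with group means as lines and SDs as bars, for the table of MPB, TCS and OIL (left) and that of DEP and OIL (right). OIL arrays of Cyp2e1 on GD 1-20 (mean 9.57) and of Cyp2j3 on PND 42-62 (mean 8.09) lay close together and high.

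Other members had smaller differences. After MPB on GD 1-20, Cyp2c22, a retinoic acid hydroxylase of rat, read 5.23, 5.25, 5.35, 5.42 and 5.33 in MPB glands, against 5.71, 5.61, 5.70, 5.57 and 5.80 in OIL glands. The groups did not overlap, which 0.226% of all genes shared, but the difference of -0.36 ± 0.09 had an adjusted p of 0.984. Cyp4b1, a P450 of rat and rabbit lung known for activating protoxins, averaged 8.00 ± 0.29 in MPB glands and 8.50 ± 0.31 in OIL glands on PND 21-41 (SD, n = 5 each; -0.50 ± 0.17, adjusted p = 0.508). The adipocyte score spanned -0.71 to -0.01 in MPB glands and -0.39 to 0.09 in OIL glands there, and with it in the fit Cyp4b1 differed by -0.28 (adjusted p = 0.675). On PND 42-62, Cyp2d4, a 2D enzyme described in rat brain, averaged 7.78 ± 0.29 in MPB glands and 8.22 ± 0.18 in OIL glands (SD, n = 5 each; -0.44 ± 0.13, adjusted p = 0.15). Cyp4a8, a fatty acid hydroxylase, differed by -0.28 ± 0.09 in that comparison (adjusted p = 0.17) and Cyp4b1 by -0.37 ± 0.12 after DEP (adjusted p = 0.262). The members' median difference on PND 42-62 was -0.13 for DEP with 2 of 15 positive, beside -0.04 over all genes, and -0.07 for MPB with 15 of 52 positive, beside -0.02.

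Over the short windows, TCS gave its smallest unadjusted p in Cyp2c13, a male-predominant enzyme of rat liver with low array values here. It read 4.56, 4.17, 4.04 and 4.66 in TCS glands, against 4.80, 4.82, 4.63, 4.90 and 4.94 in OIL glands, after exposure on PND 1-20. The highest TCS array reached just above the lowest OIL array, and the difference of -0.42 ± 0.10 had an adjusted p of 0.756. On PND 21-41, Cyp3a23-3a1, Cyp2b21 and Cyp2a3 did not overlap between TCS and OIL, 3 of 52 members beside 2.37% of all genes. On PND 42-62 the member without overlap was Cyp2j3 (2.9% of all genes). In both of these windows all TCS arrays were of batch 1, while OIL had 3 arrays of batch 1 and 2 of batch 2. Overlap was read on values not adjusted for batch. The effect of a chemical across the 4 windows passed the test for no member. The unadjusted count was 1 of 15 for DEP (4.32% of all genes, 0.0148% adjusted), 3 of 52 for MPB (7.8%, 0.0165% adjusted) and 0 of 52 for TCS (2.61%, 0% adjusted). For MPB these were Cyp2d4 (F = 4.24, adjusted p = 0.517), Cyp2j3 (F = 3.66, adjusted p = 0.561) and Cyp2c22.

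The chronic experiment asked what TCS from birth to the end of lactation did to the gland at PND 146. Cyp2j10, a 2J subfamily member, read 6.77, 7.40 and 6.08 in TCS glands, against 8.45, 8.87 and 8.46 in OIL glands. The highest TCS array lay more than 1 log2 unit below the lowest OIL array. The difference of -1.84 ± 0.31 (95% interval -2.56 to -1.13) had an adjusted p of 0.297, and 0% of all genes passed this comparison. Leaving out single arrays moved that p between 0.0901 and 0.669. Cyp2j4, an epoxygenase of rat intestine, read 6.94, 6.58 and 6.39 in TCS glands, against 7.28, 7.33 and 7.30 in OIL glands, again without overlap (-0.67 ± 0.16, adjusted p = 0.297).

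Other members lay higher under chronic TCS. Cyp4v3 read 7.70, 7.40 and 8.05 in TCS glands, against 6.70, 7.35 and 6.93 in OIL glands (0.72 ± 0.22, adjusted p = 0.304). Cyp4b1 read 7.63, 8.08 and 7.74 in TCS glands, against 7.27, 7.45 and 7.41 in OIL glands (0.44 ± 0.15, adjusted p = 0.323). Cyp2d4 read 5.40, 5.59 and 5.89 in TCS glands, against 5.20, 4.88 and 5.35 in OIL glands (0.48 ± 0.18, adjusted p = 0.33). With Cyp4f40, Cyp4f6 and Cyp2w1, 8 of 52 members did not overlap between the groups, 6 of them higher with TCS, beside 18.6% of all genes. At an unadjusted p under 0.05 there were 5 members, beside 12.9% of all genes, and the members' median was 0.02 beside 0.01 over all genes. Adipocyte markers were higher in 15 of 17 (median 0.74) and luminal epithelial markers in 6 of 19 (median -0.54), none past the test. The endothelial markers were higher in 7 of 7 (median 0.46), fibroblast markers in 13 of 13 (median 0.55), macrophage markers in 11 of 12 (median 0.54), T and NK cell markers in 11 of 12 (median 0.32) and muscle markers in 0 of 11 (median -0.86), also none past the test. The adipocyte score spanned -0.05 to 0.95 in TCS glands and -0.53 to -0.23 in OIL glands, without overlap. The luminal score spanned -0.43 to 0.10 in TCS glands and 0.00 to 0.47 in OIL glands, with overlap. The endothelial score spanned 0.21 to 0.39 in TCS glands and -0.36 to -0.19 in OIL glands. The T and NK cell score spanned 0.10 to 0.23 in TCS glands and -0.38 to 0.05 in OIL glands. The macrophage score spanned 0.02 to 0.58 in TCS glands and -0.51 to -0.07 in OIL glands. The endothelial, T and NK cell and macrophage scores did not overlap between the groups either. The part of these cells in the P450 differences was not tested.

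**Figure D3:**
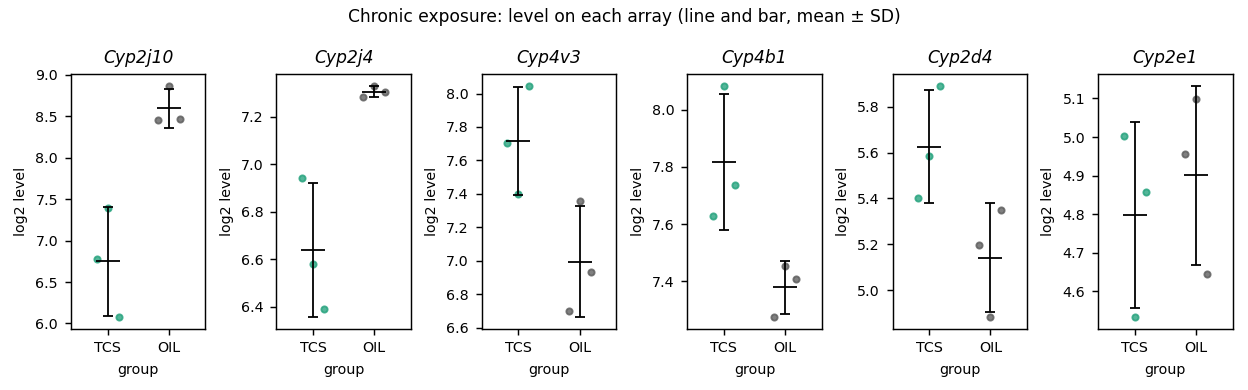
Log2 expression values (y axis) of 6 P450 genes on the 3 TCS and 3 OIL arrays of the chronic experiment (points, with means as lines and SDs as bars). Cyp2j10 and Cyp2j4 lay lower on every TCS array than on any OIL array, and Cyp4v3, Cyp4b1 and Cyp2d4 lay higher.

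Between ages, P450 genes did pass the test. In OIL glands, 8 of 52 members differed between PND 42 and PND 21 (15.4%), below the 22.4% of all genes that passed. Of these, 3 were higher at PND 42, beside 12% of all genes, and 5 lower, beside 10.5%. Cyp2s1, a P450 of epithelia outside the liver in human and mouse, read 7.11, 7.29, 7.61, 7.66 and 7.65 at PND 42, against 7.76 to 8.56 with a median of 8.14 on the 10 arrays at PND 21. It was the called member whose ages did not overlap, beside 3.51% of all genes, and it fell by 0.67 on the log2 scale (SE 0.12, adjusted p = 0.000477).

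The other members that fell were Cyp2e1, Cyp4b1, Cyp2d4 and Cyp1b1. Cyp2e1 read 6.84, 5.52, 7.97, 6.12 and 8.17 at PND 42, against 6.54 to 10.36 with a median of 8.66 at PND 21 (-1.54 ± 0.39, adjusted p = 0.00703). Its PND 21 arrays joined the high GD 1-20 group (mean 9.57) and the lower PND 1-20 group (mean 7.37) described above, beside a mean of 6.92 at PND 42. Cyp4b1 read 8.68, 8.19, 8.83, 8.14 and 8.65 at PND 42, against 8.65 to 9.69 with a median of 9.07 at PND 21 (-0.59 ± 0.15, adjusted p = 0.00634). Cyp2d4 read 8.37, 8.24, 8.33, 8.28 and 8.22 at PND 42, against 8.30 to 9.29 with a median of 8.69 at PND 21 (-0.45 ± 0.11, adjusted p = 0.00436). Both genes overlapped between the ages through the highest PND 42 arrays. Cyp1b1 read 6.30, 5.94, 6.44, 6.24 and 6.12 at PND 42, against 6.27 to 6.81 with a median of 6.57 at PND 21 (-0.36 ± 0.10, adjusted p = 0.0103).

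The members that rose were in subfamilies 4F and 2J. Cyp4f6 read 9.53, 9.08, 9.26, 8.98 and 8.92 at PND 42, against 8.31 to 9.19 with a median of 8.68 at PND 21 (0.44 ± 0.09, adjusted p = 0.00181). Cyp2j10 read 6.59, 6.97, 6.58, 6.37 and 6.86 at PND 42, against 5.53 to 6.64 with a median of 5.85 at PND 21 (0.72 ± 0.18, adjusted p = 0.00614). In both genes the ages overlapped at their edges. Cyp4f18, a leukotriene hydroxylase of mouse neutrophils, read 7.95, 7.29, 8.01, 7.33 and 6.81 at PND 42, against 6.17 to 7.50 with a median of 7.12 at PND 21 (0.48 ± 0.17, adjusted p = 0.0479). That call was lost without any 1 of 10 of the 15 arrays, while the other 7 calls held without each of the 15.

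**Figure D4:**
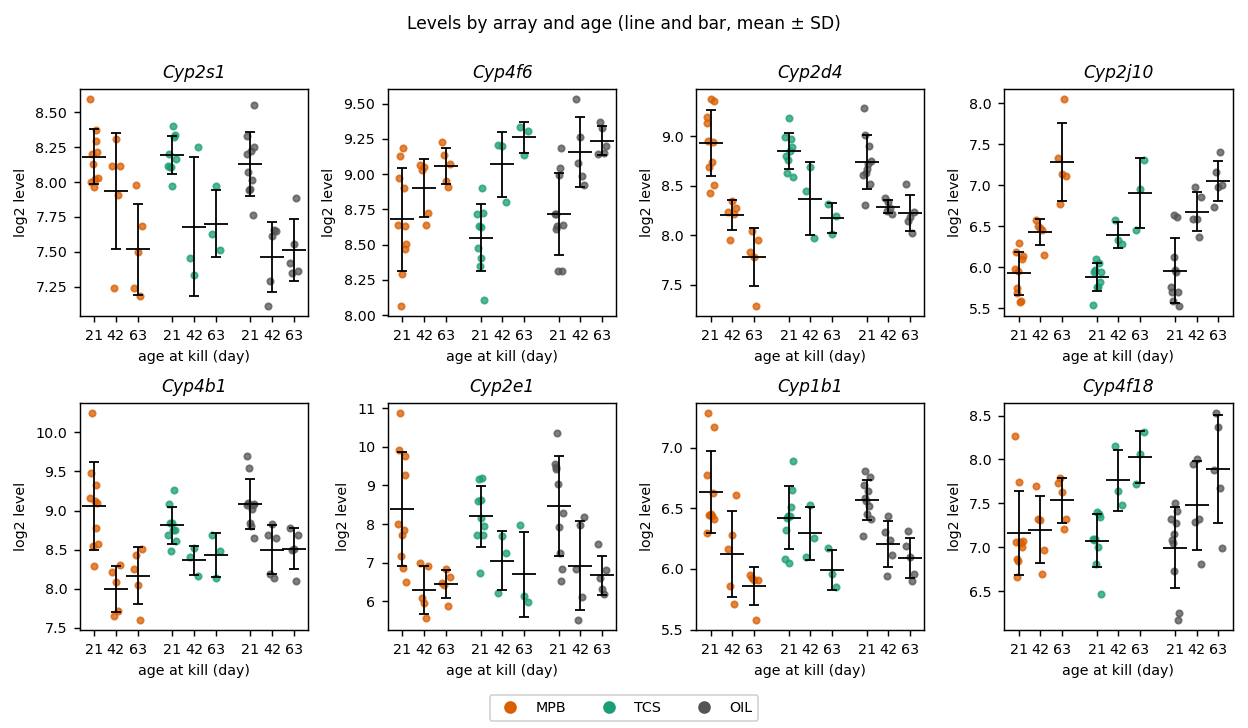
Log2 expression values (y axis) of the 8 P450 genes called between PND 42 and PND 21 in OIL glands, on each array (points), by age at kill in days (x axis) and treatment (colours), with means as lines and SDs as bars. Cyp2s1 lay lower on all OIL arrays at PND 42 (7.11 to 7.66) than at PND 21 (7.76 to 8.56).

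Promoter sequences are shown for 3 of these members, the widest fall (Cyp2e1), the aryl hydrocarbon receptor target that fell (Cyp1b1) and a member that rose (Cyp4f6). They run from 250 bases before to 50 bases after the gene start, 5′ to 3′ on the gene's strand, from RefSeq on build GRCr8. Cyp2e1 lies at chr1:205269717-205270016 (+ strand), Cyp1b1 at chr6:21094315-21094614 (+ strand) and Cyp4f6 at chr7:12708329-12708628 (− strand). Capitals mark AGGTCA, the half-site of nuclear receptors, TATAAA, known as the TATA box, and GCGTG, the core of the aryl hydrocarbon receptor element, with CACGC where it lies on the opposite strand.
Cyp2e1: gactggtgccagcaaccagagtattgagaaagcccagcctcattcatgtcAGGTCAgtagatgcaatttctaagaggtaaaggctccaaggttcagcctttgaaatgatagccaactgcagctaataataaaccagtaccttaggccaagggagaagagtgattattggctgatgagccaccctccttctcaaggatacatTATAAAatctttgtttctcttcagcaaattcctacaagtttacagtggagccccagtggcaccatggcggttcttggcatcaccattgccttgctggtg
Cyp1b1: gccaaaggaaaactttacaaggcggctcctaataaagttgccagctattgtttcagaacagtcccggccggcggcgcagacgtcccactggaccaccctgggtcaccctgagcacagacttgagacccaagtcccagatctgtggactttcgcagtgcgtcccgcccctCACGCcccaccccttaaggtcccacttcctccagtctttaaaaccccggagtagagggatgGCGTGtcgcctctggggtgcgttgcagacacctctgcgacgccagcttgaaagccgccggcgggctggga
Cyp4f6: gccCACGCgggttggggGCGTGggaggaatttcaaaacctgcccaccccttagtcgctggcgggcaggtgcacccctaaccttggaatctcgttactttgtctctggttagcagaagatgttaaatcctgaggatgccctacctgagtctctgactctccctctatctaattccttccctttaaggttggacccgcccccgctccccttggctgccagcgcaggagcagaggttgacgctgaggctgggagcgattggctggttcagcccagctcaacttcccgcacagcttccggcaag
Cyp2e1 holds AGGTCA at bases 51 to 56 and TATAAA at bases 202 to 207, counted from the first base shown. Cyp1b1 holds GCGTG on the opposite strand at bases 170 to 174 and on the shown strand at 231 to 235, and Cyp4f6 at 4 to 8 on the opposite strand and 18 to 22 on the shown strand. RefSeq windows matched 44 of 52 members in 51 windows. Searched on both strands, GCGTG was in 13 of these (25.5%), beside 29.7% of all 33469 windows, TATAAA in 11 (21.6%), beside 14.2%, and AGGTCA in 15 (29.4%), beside 16.2%. The longer AGGTCANAGGTCA, which contains AGGTCA and is the spacing PPAR receptors bind, was in 0 member windows and 0.0538% of all. A match describes the letters only.

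The age difference was then read in the animals of each chemical, which shared no arrays with OIL or each other. All 8 members called in OIL had the same sign in MPB, TCS and DEP glands. Over all members, called or not, 34 of 52 shared the OIL sign in MPB, 28 of 52 in TCS and 14 of 15 in DEP glands. Of all genes, called or not, 67.6%, 73.5% and 86.6% shared it in MPB, TCS and DEP glands. The same share among all genes called in OIL was not counted. MPB glands had 3 of 52 called (5.77%, beside 7.71% of all genes), all lower at PND 42 and 1 of them, Cyp2d4, without overlap between the ages (1.58% of all genes). They were Cyp2d4 (-0.73 ± 0.15, adjusted p = 0.0053), Cyp4b1 (-1.07 ± 0.22, adjusted p = 0.00596) and Cyp2e1 (-2.09 ± 0.55, adjusted p = 0.0242). All 3 were called in OIL too, 37.5% of the members' OIL calls, beside 27.5% of the OIL calls over all genes. The Cyp2e1 call in MPB was lost without PND 21-41 replicate 2, 3 or 4, and without PND 21-41 replicate 5 the count was 5. Of the remaining OIL calls, Cyp1b1 differed by -0.51 (adjusted p = 0.078), Cyp2j10 by 0.51 (adjusted p = 0.0712), Cyp2s1 by -0.25 (adjusted p = 0.429), Cyp4f6 by 0.22 (adjusted p = 0.257) and Cyp4f18 by 0.03 (adjusted p = 0.947) in MPB glands.

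TCS glands had 5 of 52 called (9.62%, beside 13.6% of all genes), 3 higher and 2 lower at PND 42. Cyp4v3 read 9.01, 8.98 and 9.16 at PND 42, against 8.32 to 8.89 over 9 arrays at PND 21, without overlap, which 10.5% of all genes shared (0.32 ± 0.10, adjusted p = 0.04). Cyp2j10 read 6.58, 6.33 and 6.29 at PND 42, against 5.54 to 6.10 at PND 21, also without overlap (0.55 ± 0.16, adjusted p = 0.042). Cyp4f6 rose too (0.39 ± 0.12, adjusted p = 0.0405), while Cyp4b1 (-0.53 ± 0.15, adjusted p = 0.0356) and Cyp2s1 (-0.57 ± 0.16, adjusted p = 0.0365) fell. The fitted differences adjust for batch, and all TCS arrays at PND 42 were of batch 1. This count rested on single arrays. It was 0 without TCS GD 1-20 replicate 2 or 3 or TCS PND 21-41 replicate 1, and 1 without TCS GD 1-20 replicate 1 or TCS PND 1-20 replicate 1 or 3. It was 2 without TCS PND 21-41 replicate 2, where all 5 calls above were lost and other members were called. The count was 3 without TCS PND 1-20 replicate 2 and 8 without TCS GD 1-20 replicate 5. With single arrays left out, the Cyp4b1 call held in 6 of 12 fits and that of Cyp4f6 in 5. Those of Cyp2s1 and Cyp2j10 held in 4 each and that of Cyp4v3 in 3. Shared with OIL were 4 calls, 50% of the members' OIL calls, beside 47.2% of the OIL calls over all genes, and 80% of the members' TCS calls.

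DEP glands had 8 of 15 called (53.3%, beside 35.7% of all genes in their table), 3 higher and 5 lower. The table held genes that vary, so these shares are not comparable with the others. Cyp2d4 (-0.93 ± 0.15, adjusted p = 0.000273), Cyp4b1 (-0.70 ± 0.18, adjusted p = 0.00569), Cyp2s1 (-0.64 ± 0.19, adjusted p = 0.0127), Cyp4f5 (-0.38 ± 0.11, adjusted p = 0.0138) and Cyp2e1 (-1.29 ± 0.41, adjusted p = 0.02) fell. Cyp2j10 (0.89 ± 0.19, adjusted p = 0.00208), Cyp4f6 (0.42 ± 0.11, adjusted p = 0.00965) and Cyp4f18 (0.52 ± 0.19, adjusted p = 0.0465) rose. With single arrays left out, the Cyp4f18 call held in only 3 of 15 fits. The Cyp2e1 call held in 12 of 15 and was lost without DEP PND 21-41 replicate 2, 3 or 5. Of the members' OIL calls, 7 were called in DEP, 87.5% of each list, beside 61.7% of the OIL calls over all genes of that table, and Cyp1b1 (-0.23, adjusted p = 0.078) was not. Whether the age difference varied between treatments was not tested.

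**Figure D5:**
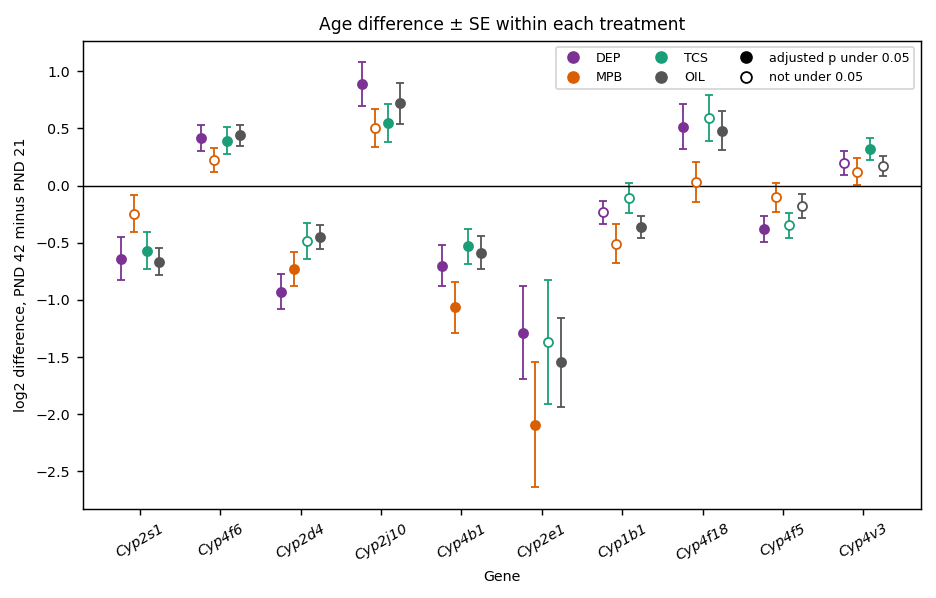
Log2 difference (y axis, PND 42 minus PND 21, bars are SEs) of the P450 genes called in any treatment (x axis), by treatment (colours). Filled points had an adjusted p under 0.05 and open points did not. The 8 genes called in OIL had the same sign in MPB, TCS and DEP glands. Over all members, called or not, 34 of 52, 28 of 52 and 14 of 15 shared the OIL sign. Over all genes, called or not, 67.6%, 73.5% and 86.6% did. The share among all genes called in OIL was not counted.

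Between PND 63 and PND 42 no member was called. All genes passed at 0.782% in OIL, 0.0887% in DEP, 0.308% in MPB and 0.0055% in TCS glands, and the unadjusted limma counts of members were 4 (12.7% of all genes), 0 (10.5%), 7 (11.2%) and 4 (4.33%). In MPB glands Cyp2j10 averaged 7.28 ± 0.47 at PND 63 and 6.43 ± 0.16 at PND 42 (SD, n = 5 each), a difference of 0.85 ± 0.19 with an adjusted p of 0.0636. It was called without MPB PND 42-62 replicate 2. Over OIL glands at PND 21, 42 and 63, Cyp2j10 averaged 5.96 ± 0.40 (SD, n = 10), 6.68 ± 0.24 and 7.05 ± 0.25 (SD, n = 5 each).

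Markers of cell types differed over the same interval. In OIL glands 13 of 17 adipocyte markers passed the test as lower at PND 42 than at PND 21 (median -0.57), as did 11 of 12 B cell markers (median -1.41). Of the luminal epithelial markers, 17 of 19 passed as higher (median 1.48), and of the hepatocyte markers 1 of 11, Fgg, was. The adipocyte score spanned -0.39 to 0.09 at PND 42, against -0.01 to 0.66 over both PND 21 groups, and the luminal score 0.66 to 1.17, against -1.84 to 0.56. Other mean scores moved too. The milk protein score was 0.73 at PND 42, against -1.14 in the GD 1-20 group and -0.80 in the PND 1-20 group. In the same order, the basal score was 0.65, against -0.46 and -0.30, and the T and NK cell score -1.09, against 0.29 and 0.23. With the adipocyte score in the fit, the OIL calls came to 1 (Cyp2s1), and Cyp4b1 had a difference of 0.00386. With adipocyte and luminal scores together they came to 0 in OIL, MPB, TCS and DEP glands, where 0.176% of all genes remained called in OIL. With both, Cyp4b1 had a difference of 0.14, Cyp2d4 0.23, Cyp2j10 -0.04 and Cyp4f18 -0.32 in OIL glands. Age and these scores moved together on the same arrays.

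Within PND 21, age was constant and members could be set against cell scores over 29 MPB, TCS and OIL arrays. Of 40 relations, 3 had both correlations below an adjusted p of 0.05 by permutation. Cyp1b1 went with the adipocyte score (r = 0.617, rho = 0.591, adjusted permutation p = 0.00693 and 0.0135). Without the 2 arrays farthest from the median score r was 0.502, and it was 0.798 in 18 batch 1 arrays and 0.393 in 11 batch 2 arrays. Cyp2s1 went against the luminal score (r = -0.618, rho = -0.588, adjusted permutation p = 0.00693 and 0.0135), at -0.42 without the 2 farthest and -0.747 and -0.419 in batches 1 and 2. Cyp4f5, a 4F hydroxylase, went with the B cell score (r = 0.525, rho = 0.662, adjusted permutation p = 0.0343 and 0.0036), at 0.513 without the 2 farthest and 0.772 and 0.457 within batches. These scores came from the same arrays as the genes.

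Among partners of the P450 enzymes, 3 of 12 genes of electron and heme supply and 1 of 4 epoxide hydrolases were called between PND 42 and PND 21 in OIL glands, beside 22.4% of all genes, so these counts are no result about the lists. Por, the oxidoreductase that feeds electrons to microsomal P450s, fell (-0.34 ± 0.08, adjusted p = 0.00283), as did Pgrmc2 (-0.28 ± 0.08, adjusted p = 0.0175), while the heme-binding Pgrmc1 rose (0.34 ± 0.08, adjusted p = 0.0034). Por was also lower in MPB (-0.54) and DEP glands (-0.33). Ephx1, the microsomal epoxide hydrolase that opens P450-made epoxides, fell in OIL (-0.60 ± 0.11, adjusted p = 0.000782), and also in MPB (-1.15), TCS (-0.78) and DEP glands (-0.81).

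Among 17 sensing receptors 1 rose and 5 fell at PND 42 in OIL glands, beside 12% of all genes higher and 10.5% lower. Only the 4 of smallest p are named here, and the 1 that rose is not among them. Pparg, the adipocyte fatty acid receptor and also one of the adipocyte markers above, fell by 1.06 (SE 0.13, adjusted p = 1.92e-05), Rxrg by 0.75, Ppara by 0.58 and the oxysterol receptor Nr1h3 by 0.56 on the log2 scale. Of 13 PPAR alpha targets outside the P450s, 4 rose and 3 fell. Plin2, a lipid droplet coat protein (1.09 ± 0.12, adjusted p = 5.44e-06), Angptl4, a lipoprotein lipase inhibitor (1.17), and Cpt1a (0.74) rose, and the muscle-type Cpt1b (-0.76) fell. None of 5 aryl hydrocarbon receptor targets was called. Of 18 P450 genes of other families, 2 rose and 1 fell, with Cyp39a1, Cyp24a1 and Cyp26b1 as the called ones. Pdk4, a kinase that restrains glucose oxidation, rose at PND 63 over PND 42 in OIL glands (1.32 ± 0.29, adjusted p = 0.0406).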

How the data were processed

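Per the labels' protocols, 250 ng of total RNA with a RIN of at least 7 went on each array. The authors deposited RMA log2 values from Affymetrix Expression Console, 1 per cluster of probes, per the submitters' processing notes. Their versions and build are not given in the sources used here. The 20 OIL arrays present in both short-window tables differed by -0.115 on average, and their 2 batches differed less in the DEP and OIL table (SD of the batch difference over clusters 0.169) than in the other (0.401), which the labels do not explain. DEP was therefore set against OIL inside its own table alone. Columns of per-sample values without a sample in the labels numbered 0.

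Per gene the cluster with the highest mean was kept. Differences were fitted in R 4.3.3 by lmFit and eBayes of limma 3.58.1, after reading the files with data.table (1.17.8). Arrays of the same age at kill entered 1 fit for each chemical comparison, the arrays of 1 treatment entered each age comparison, and batch was a term in both. In the age fits both PND 21 groups had equal weight. The 6 chronic arrays had their own fit. P-values were adjusted by Benjamini-Hochberg over all genes, with a threshold of 0.05. Differences between windows were tested with a moderated F test. The arrays' number limits the precision. The tests were run on simulated data first. Correlations used 1e+05 permutations. Python 3.11.15 with pandas 2.3.3 and matplotlib 3.10.9 made the figures.

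The members and lists were chosen with earlier results of these data known. Named were members past the threshold, the 12 of highest mean, marker P450s, and per comparison the 3 of smallest p, as far as the text has room, and called list genes, at most 4 per list. Alternatives changed the filter on low values, the eBayes prior, the cluster rule, array weights, batch, cell scores, the arrays in the fit and single replicates.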

Additional observations from a re-analysis of the deposited data

Results flagged for a closer look

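Dixon's criterion was applied to the members called in an age comparison, in groups of 4 or 5 arrays. Other named members were not looked at. Of 140 gene and group combinations, 8 held 1 array set apart from the rest of its group, and chance sets apart about 1 in 20. In MPB glands, Cyp4f18 had its highest GD 1-20 array at 8.26 with the next at 7.06, and its highest PND 1-20 array at 7.74 with the next at 7.07. Cyp1b1 had its highest MPB array of PND 1-20 at 7.18 (next 6.63) and its lowest of PND 42-62 at 5.58 (next 5.91). Cyp2j10 had its lowest MPB array of PND 21-41 at 6.15 (next 6.46). Cyp4f6 had its lowest OIL array of GD 1-20 at 8.31 (next 8.61). Cyp2s1 had its lowest DEP array of PND 1-20 at 7.75 (next 8.18) and its highest DEP array of PND 21-41 at 8.07 (next 7.39).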

How the results depend on the processing

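Counts of called members are given here. Against OIL, where the count was 0, limma's array weights gave 3 for DEP, 6 for MPB and 1 for TCS, muscle and B cell scores as covariates 1 for DEP (Cyp2j3) and 1 for MPB (Cyp4f17), and all short-window arrays in 1 fit 1 for MPB (Cyp2j3). With array weights 14.7% of all genes passed for MPB on PND 42-62 and 20.3% for DEP. For PND 42 against PND 21 in OIL, where the count was 8, batch 2 alone gave 1, muscle and B cell scores 4, the adipocyte score 1, and leaving out arrays with a muscle score over 1 gave 5. In DEP, where it was 8, batch 1 gave 2, batch 2 gave 0, muscle and B cell scores 2 and the adipocyte score 4. In MPB, where it was 3, array weights gave 6, batch 1 gave 5, batch 2 gave 0, muscle and B cell scores 6 and the adipocyte score 0. In TCS, where it was 5, array weights gave 9, no batch term 3, the adipocyte score 1 and leaving out muscle-rich arrays 8. Adipocyte and luminal scores together, chosen after seeing the data, gave 0 in all 4. For PND 63 against PND 42, where counts were 0, array weights gave 1 in OIL, 2 in DEP and 5 in MPB, and in OIL muscle and B cell scores or leaving out muscle-rich arrays gave 1. Across windows array weights gave 9 and batch 1 alone 1. The single-batch fits held fewer arrays, and the cause of the changed counts was not tested.

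Single arrays left out gave 0 to 0 for DEP, TCS and chronic TCS against OIL, for OIL GD 1-20 against PND 1-20, and for PND 63 against PND 42 in DEP and TCS. They gave 0 to 1 for MPB against OIL, 0 to 1 for PND 63 against PND 42 in OIL and in MPB, and 7 to 9, 6 to 9, 2 to 5 and 0 to 8 for PND 42 against PND 21 in OIL, DEP, MPB and TCS. The MPB count was 5 without MPB PND 21-41 replicate 5, and the TCS counts by array stand in the text. The sign turned for Cyp4b1 in OIL with the adipocyte score (0.00386). It turned with adipocyte and luminal scores for Cyp2d4 (0.23), Cyp2j10 (-0.040), Cyp4b1 (0.14) and Cyp4f18 (-0.32) in OIL, Cyp4b1 (0.082) in DEP, Cyp4b1 (0.37) and Cyp2e1 (0.35) in MPB, and Cyp4v3 (-0.13) and Cyp2j10 (-0.22) in TCS. No paired analysis was possible because the replicate numbers were given in accession order and pair no samples. Members with values near probe background carry little signal, so a change in them may not be detectable on these arrays.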

Other observations

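Cyp2b12, a P450 known from rat sebaceous glands, read 5.11, 3.73 and 3.48 in chronic TCS glands, against 3.76, 11.70 and 3.31 in chronic OIL glands. A single OIL array therefore set its group mean of 6.26, and the difference of -2.15 ± 1.99 (SE) rests on it. Over the MPB, TCS and OIL arrays of the short windows, Cyp2b12 stayed between 3.87 and 4.77.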
